A study of Mus musculus with 24 samples.

Results

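The gene described here is Nnt, which encodes nicotinamide nucleotide transhydrogenase. It is 1 of 33902 symbols in the snRNA-seq (single-nucleus RNA sequencing) count table, and 16 of the 300819 snATAC-seq (single-nucleus chromatin accessibility) peaks lie over it or within 2 kb of either end. The row was taken by its symbol and the peaks by their position, without reference to their values. Ventral hippocampus was taken from adult male mice, aged 10 to 16 weeks, of the inbred strains C57BL/6J (B6) and DBA/2J (D2, labelled DBA). The labels give no treatment. Each strain had 2 libraries per assay, and a library combined tissue from about 2 animals, so its value is that of a pool. For snRNA-seq, nuclei had been sorted on NeuN, a protein of neuronal nuclei, to a set mixture of neuronal and non-neuronal nuclei, so the shares of cell types do not describe the tissue. NeuN was not used for snATAC-seq. The question was how the Nnt transcript and the chromatin over the gene differed between the strains and between cell types. Libraries are called 2 and 3, as the count tables number them.

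NNT sits in the inner mitochondrial membrane. It uses the proton gradient to pass hydride from NADH to NADP+, and the NADPH that results feeds glutathione reductase and the thioredoxin system, which remove peroxide. C57BL/6J mice carry a deletion of several exons of Nnt and lack the functional protein, whereas DBA/2J mice have an intact gene. The strains also differ at many other loci, so a difference between them cannot be told apart from the effects of the rest of the genome.

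In mm10 (GRCm38), GENCODE vM21 places Nnt on the minus strand of chromosome 13. It has 2 protein-coding entries under this symbol. The larger, ENSMUSG00000025453, spans chr13:119335448-119408997 (73550 bases) with 5 transcripts, and the smaller, ENSMUSG00000116207, spans chr13:119335528-119408952 and lies wholly inside it. The smaller entry covers 99.8% of the larger one, leaving 80 bases at the 3′ end and 45 bases at the 5′ end that belong to the larger entry alone. The longest coding transcripts of both entries, Nnt-202 and Nnt-206, have 17 exons and 835 codons each. This reference is the sequence of C57BL/6J, so the exons deleted in that strain have no coordinates in it. Reads from them could not be counted. D2 carries these exons and B6 does not, so such reads would be missing from the D2 counts alone. The part of this in the strain differences was not tested. The values given here can come only from the rest of the transcript, for which introns were retained, and do not measure the deletion itself. How much of that rest was counted is not known, because the 2 entries overlap.

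The table held a single row for Nnt. How reads from the bases that both entries share were assigned is not given in the sources used here. Nnt averaged 3.05 CPM (counts-per-million, the count scaled to the total of its column or library) over the 4 libraries, and 20.7% of 2487 protein-coding genes with a single entry and a span of 50 to 100 kb had a lower mean. Per kilobase of gene it had 0.0415 CPM, against a median of 0.434 CPM for those genes. The table holds 12 symbols, Nnt among them, whose 2 entries share at least 90% of the longer one. Of these, 5 were more than 2-fold apart between the strains or held 3 counts or fewer in 1 strain only. The share of all symbols that meet this rule was not counted. Among the 5, Fam220a had only 3 and 3 counts in B6 against 6 and 7 in D2, and Snora43 0 and 0 against 3 and 2. Ndor1, also among the 5, had 1730 and 1655 counts in B6 against 5 and 2 in D2. A second row of that name, numbered as a duplicate, had 0 in both B6 libraries and 170 and 134 counts in the D2 libraries. Among the other symbols, Hgs had 820 and 897 counts in B6 and 806 and 666 in D2. Of 30 such second rows, 15 held counts in D2 alone and 1 in B6 alone, and 8194 symbols were counted in D2 and not in B6, against 963 the other way. The part that unequal gene lists play in the Nnt values was not tested.

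Nnt was counted in all 14 cell types used here, which comprised 8 excitatory types (Exc), 1 inhibitory type (Inh-MGE, interneurons of the medial ganglionic eminence) and 5 non-neuronal types (NN). Levels in CPM were highest in non-neuronal cells in both strains. In D2, astrocytes (NN-Astro) had the highest mean, 9.87 CPM ± 1.53 (SD, n = 2), from 39 and 33 counts. Vascular and leptomeningeal cells (NN-VLMC) had 11.8 and 6.42 CPM in the D2 libraries, oligodendrocyte precursors (NN-OPC) 7.35 and 9.12 CPM, and microglia (NN-MGC) 2.28 and 8.43 CPM. The lowest D2 levels were in the CA1 neurons named for Galntl6 (Exc-CA1-Galntl6), with 1.02 CPM ± 0.0221 (SD, n = 2), and in the Gpc6 cluster (Exc-Gpc6), with 1.09 CPM ± 0.385 (SD, n = 2). Each D2 cell type overlapped its neighbour in this order between the 2 libraries, so the order of neighbours was not resolved.

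In B6, microglia ranked first, with 9.72 and 9.41 CPM from 5 and 7 counts. Astrocytes followed with 7.48 CPM ± 1.48 (SD, n = 2) and oligodendrocyte precursors with 6.37 CPM ± 0.155 (SD, n = 2). Microglia lay above astrocytes, and the precursors above oligodendrocytes (NN-ODC, 5.14 and 3.10 CPM), in both B6 libraries, while every other pair of neighbours overlapped. All 8 excitatory types had B6 means between 1.98 CPM (Exc-CA1-Fras1) and 3.28 CPM (Exc-CA1-Camk2d). The depth behind these levels was small. NN-VLMC had 0 and 3 counts in the B6 libraries, and a count of 0 there allows up to 13.3 CPM (3 counts of the column's total).

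**Figure D1:**
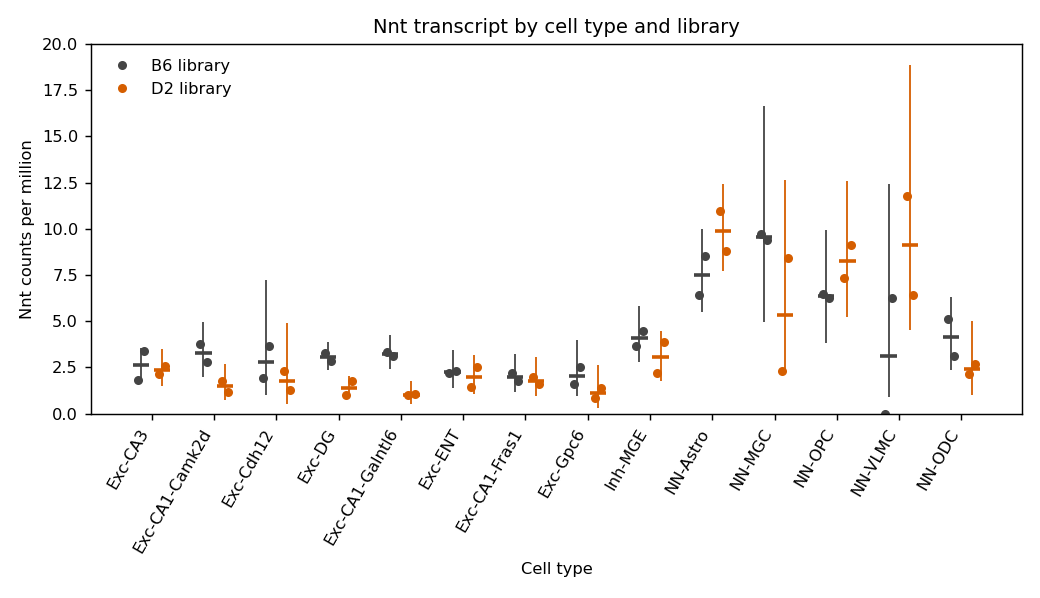
Nnt level in CPM (y axis) in each library of the 14 cell types (x axis). Points are libraries, short horizontal bars are means of 2 libraries, and vertical lines are exact 95% Poisson intervals of the pooled count, which cover counting error only. In Exc-CA1-Galntl6 both D2 libraries (1.00 and 1.03) lie below both B6 libraries (3.32 and 3.11), while in astrocytes both D2 libraries (11.0 and 8.79) lie above both B6 libraries (6.43 and 8.53).

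Summed over the 8 excitatory types, Nnt was lower in D2 than in B6. The 8 excitatory types together held 108 and 113 Nnt counts in B6, against 54 and 51 in D2, that is 2.70 and 2.80 CPM against 1.44 and 1.71 CPM. Both D2 libraries lay below both B6 libraries. The log2 fold change (D2 minus B6) was -0.86 ± 0.196 (SE, n = 2 libraries per strain), with an adjusted p of 0.00193 in edgeR's quasi-likelihood test with Benjamini-Hochberg adjustment over 23714 transcripts. In that comparison 48.2% of all transcripts passed at an adjusted p under 0.05, and 17.2% passed and were lower in D2. By type, D2 lay below B6 without overlap in Exc-CA1-Galntl6, Exc-CA1-Camk2d, Exc-Gpc6 and dentate granule neurons (Exc-DG). Their pooled ratios of D2 to B6 were 0.316 to 0.486. The strains overlapped in Exc-CA1-Fras1 (0.902), Exc-CA3 (0.926), Exc-ENT (0.843) and Exc-Cdh12 (0.619). The drop in the sum came largely from Exc-DG (66 against 23 counts) and Exc-CA1-Galntl6 (50 against 13). This sum was chosen after the values of single cell types had been seen, a choice that other settings of the same counts cannot undo. It passed in each of 10 other settings, DESeq2 (adjusted p = 0.0407) and the omission of each library (adjusted p from 0.00149 to 0.0356) included.

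The difference was largest in Exc-CA1-Galntl6 among the types tested. These neurons had 27 and 23 Nnt counts in B6 and 7 and 6 in D2, or 26.4 and 31.6 counts per 1000 nuclei against 8.76 and 10.2. The groups did not overlap on either scale. The log2 fold change was -1.67 ± 0.382 (SE), with an adjusted p of 0.00245 (edgeR). In this cell type 35% of transcripts were called in either direction and 14.1% were called and lower in D2. The counting error of the 4 counts alone amounts to an SE of 0.449 on the log2 scale, which is wider than the SE of the model, and DESeq2 gave an adjusted p of 0.121.

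Granule neurons of the dentate gyrus (Exc-DG) showed the same direction. Their counts were 34 and 32 in B6 and 9 and 14 in D2, or 3.25 and 2.82 CPM against 0.999 and 1.77 CPM. All D2 values lay below all B6 values. The log2 fold change was -1.17 ± 0.342 (SE), with an adjusted p of 0.0157 (edgeR). Of all transcripts tested in Exc-DG, 36% were called and 13.8% were called and lower in D2. The call was lost without B6 library 2 (adjusted p = 0.0662), without D2 library 2 (adjusted p = 0.175) and with DESeq2 (adjusted p = 0.234).

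No other cell type passed. The filter on low counts left 7 of the 14 types in which Nnt was tested, of which 2 were called, both lower in D2. The filter asks for enough counts in 2 of the 4 libraries, so a type can enter through the strain with the higher level. Exc-CA1-Galntl6 entered through B6, with 27 and 23 counts there against 7 and 6 in D2. With no filter beyond 1 count the adjusted p was 0.000331 in Exc-CA1-Galntl6 and 0.00278 in Exc-DG (edgeR). In CA3 neurons (Exc-CA3) the counts were 13 and 20 in B6 and 12 and 11 in D2, with a log2 fold change of -0.14 ± 0.408 (SE) and an adjusted p of 0.839 (edgeR). Its groups overlapped, and 32.1% of its transcripts were called. The neurons called entorhinal in the tables (Exc-ENT) had 10 and 11 counts in B6 and 6 and 8 in D2, with a log2 fold change of -0.29 ± 0.471 (SE) and an adjusted p of 0.722 (edgeR), where 28% of transcripts were called. Inh-MGE had 13 and 18 counts in B6 and 9 and 11 in D2, with a log2 fold change of -0.53 ± 0.410 (SE) and an adjusted p of 0.421 (edgeR), where 21% of transcripts were called. The 95% Poisson intervals of the strains overlapped in all 3 types. With 1 library left out, the log2 fold change of Inh-MGE ranged from -0.90 to -0.14, lowest adjusted p 0.441 (edgeR).

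Non-neuronal types did not show the lower D2 level as a class, although both D2 libraries lay below both B6 libraries in 2 of them, oligodendrocytes and microglia. Astrocytes had 20 and 27 counts in B6 and 39 and 33 in D2, with both D2 libraries above both B6 libraries in CPM. Their log2 fold change was 0.48 ± 0.305 (SE), with an adjusted p of 0.269 (edgeR) where 26.2% of transcripts were called. Oligodendrocyte precursors had 9 and 10 counts in B6 and 9 and 13 in D2, with a log2 fold change of 0.39 ± 0.460 (SE) and an adjusted p of 0.677 (edgeR), where 16.2% of transcripts were called. The 5 non-neuronal types together had 44 and 55 counts in B6 and 59 and 57 in D2. Their log2 fold change was 0.37 ± 0.215 (SE), with an adjusted p of 0.227 (edgeR), where 30.5% of transcripts were called. Astrocytes held 6.05% of all counts in B6 and 8.20% in D2, and oligodendrocytes 4.37% and 3.22%, so the mixture in this sum differed between the strains. Its part in the difference was not tested.

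The remaining 7 types held too few counts to be tested. Exc-CA1-Camk2d had 10 counts in each B6 library against 7 and 4 in D2, and Exc-CA1-Fras1 had 10 and 7 against 8 and 5. Oligodendrocytes had 10 and 8 against 3 and 4 counts, and microglia 5 and 7 against 1 and 5. Exc-Gpc6, Exc-Cdh12 and NN-VLMC held between 0 and 7 counts per library. Over all 14 types, both D2 libraries lay below both B6 libraries in CPM in 6 types and above them in 3, and the groups overlapped in 5. Among all pairs of a symbol and a cell type with 10 counts or more, 24.3% were lower without overlap and 33.2% were higher without overlap in D2.

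**Figure D2:**
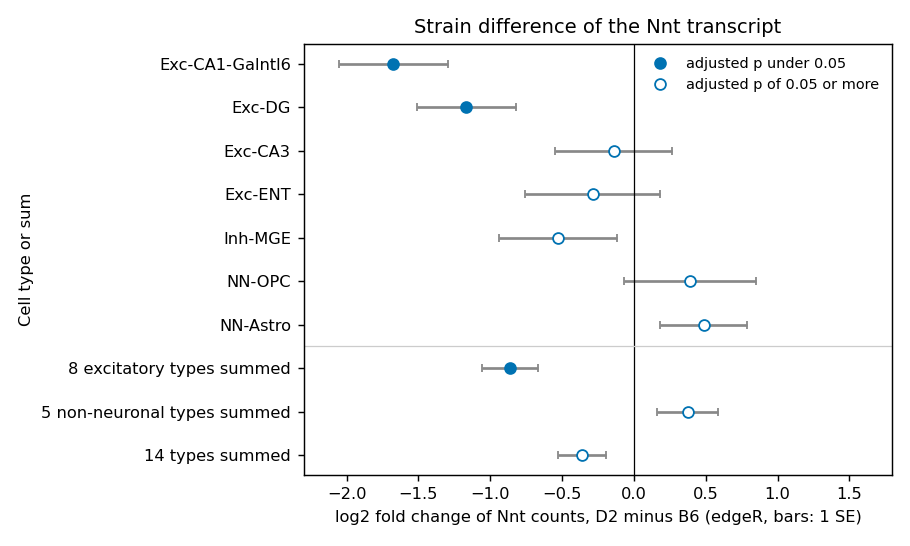
Log2 fold change of Nnt, D2 minus B6 (x axis), in the 7 cell types tested and in 3 sums of cell types (y axis), from edgeR, with bars of 1 SE. Filled points passed an adjusted p under 0.05. Exc-CA1-Galntl6 (-1.67), Exc-DG (-1.17) and the excitatory sum (-0.86) are filled and lie left of 0, and astrocytes (0.48) and oligodendrocyte precursors (0.39) lie right of it without passing.

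Summed over the 14 types, Nnt had 165 and 186 counts in B6 and 122 and 119 in D2, or 3.25 and 3.51 CPM against 2.50 and 2.95 CPM. Both D2 libraries were below both B6 libraries. The log2 fold change was -0.36 ± 0.165 (SE), with an unadjusted p of 0.0463 and an adjusted p of 0.0892 over 25445 transcripts (edgeR), so it did not pass where 46.4% of all transcripts did. Excitatory types supplied 63% of the Nnt counts in B6 (exact binomial 95% interval 57.7 to 68%) and 43.6% in D2 (37.2 to 50.1%), and non-neuronal types 28.2% (23.6 to 33.2%) and 48.1% (41.7 to 54.6%). The intervals of the strains did not overlap for either class, but they cover counting error of pooled counts and leave out the spread between libraries. They are no test of a strain difference. Astrocytes alone supplied 13.4% of Nnt counts in B6 and 29.9% in D2, while they held 6.05% and 8.20% of all counts and 13.5% and 16.8% of nuclei. Without astrocytes the log2 fold change of the sum was -0.63 ± 0.182 (SE), with an adjusted p of 0.0128 (edgeR), a setting chosen after seeing the data.

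The levels of neuronal and non-neuronal types were compared in 1 joint edgeR fit of 14 types and 21520 transcripts, with each type weighted equally within its class. Columns of the same library entered this fit as separate observations, although each strain had only 2 libraries. They are not independent samples, so the p-values of this fit can be too small. On average over types, Nnt was lower in neuronal types in both strains. Single types did not all follow, as Inh-MGE had a mean of 3.03 CPM in D2 against 2.43 CPM in oligodendrocytes. The log2 difference, neuronal minus non-neuronal, was -0.84 ± 0.282 (SE) in B6, with an adjusted p of 0.00840, where 54% of transcripts were called. In D2 it was -1.77 ± 0.285 (SE), with an adjusted p of 9.1e-08, where 59.2% were called. These are levels relative to each type's total. Per 1000 nuclei, excitatory types had 21.9 and 27.5 Nnt counts and non-neuronal types 16.0 and 19.3 in B6, so the order of the classes was the reverse of that in CPM. In D2, excitatory types had 11.7 and 15.1 counts per 1000 nuclei and non-neuronal types 23.9 and 24.9, the same order as in CPM. Inh-MGE had 29.3 and 45.7 counts per 1000 nuclei in B6, and 18.4 and 35.6 in D2, where it overlapped the non-neuronal types.

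Whether the strain difference itself varied between cell types was tested in the same fit, with the same limit on its p-values. Over all type by strain terms the unadjusted p was 0.0110 and the adjusted p 0.0717, where 13.9% of transcripts passed. The strain difference in neuronal types minus that in non-neuronal types was -0.94 ± 0.354 (SE, log2), with an unadjusted p of 0.0101 and an adjusted p of 0.112, where 6.11% passed. Neither passed the adjusted threshold. That Exc-CA1-Galntl6 and Exc-DG passed singly and astrocytes did not is no test of that difference.

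Chromatin over the gene was read from the 9 neuronal cell types used in the snATAC-seq table. The 16 peaks comprised 1 over the start site, 11 within introns, 3 that held parts of an exon and an intron, and 1 downstream of the 3′ end. The start site peak, chr13:119408022-119409661 (1640 bases), held the most counts, with 1010 and 968 in B6 and 826 and 1076 in D2 summed over types. It had 4.39 CpG dinucleotides per 100 bases, more than 95.8% of the 300776 peaks whose sequence was read (median 1.05). Its level was 11.8 and 10.6 CPM in B6 and 8.91 and 9.42 CPM in D2, without overlap. The log2 fold change was -0.25 ± 0.0780 (SE), with an adjusted p of 0.0228 over 300819 peaks (edgeR). In Exc-DG alone it was -0.37 ± 0.0998 (SE), with an adjusted p of 0.00638 (edgeR) over 297387 peaks. The call in the sum was lost without B6 library 2 (-0.16 on the log2 scale, adjusted p = 0.347) and without D2 library 2 (adjusted p = 0.183), and that in Exc-DG without B6 library 2 (adjusted p = 0.186), all in edgeR.

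Summed over types, 3 of the 16 peaks were called, all lower in D2, where 10.8% of all peaks were called and 5.33% were called and lower. In Exc-DG 2 of 16 were called, both lower in D2, where 5.97% were called and 2.58% were called and lower. The median log2 fold change of the 16 peaks was -0.20 in the sum and -0.42 in Exc-DG, against 0.00 for all peaks in both. At an unadjusted p under 0.05 (edgeR) there were 8 of the 16 in the sum, against 21.7% of all peaks. In Exc-DG there were 3 of the 16, against 16% of all peaks. DESeq2 called 0 of the 16 peaks in the sum, where it called 4.76% of all peaks, with 4 at an unadjusted p under 0.05 against 11.6% of all peaks. In Exc-DG it also called 0, where it called 1.61% of all peaks, with 1 at an unadjusted p under 0.05 against 5.46%. Without D2 library 2, edgeR called 0 of them in the sum, where 6.93% of all peaks were called, with 5 at an unadjusted p under 0.05 against 16.2%. Without B6 library 2 it called 1, where 8.6% of all peaks were called.

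The other called peaks lie in introns of Nnt-202. The first, in intron 14, is chr13:119341739-119342130, centred 67.1 kb into the gene. It held 92 and 115 counts in B6 and 48 and 83 in D2, or 1.08 and 1.26 CPM against 0.518 and 0.727 CPM, without overlap. Its log2 fold change was -0.86 ± 0.195 (SE), with an adjusted p of 0.000890 (edgeR). In Exc-DG its counts were 23 and 37 against 9 and 19, with a log2 fold change of -1.07 ± 0.348 (SE) and an adjusted p of 0.0410 (edgeR). Its call in the sum was lost without D2 library 2 (adjusted p = 0.0766), and that in Exc-DG without B6 library 3 (-0.59 on the log2 scale, adjusted p = 0.614), without D2 library 2 (adjusted p = 0.227) or without D2 library 3 (adjusted p = 0.113). The second, in intron 12, is chr13:119360895-119361130, centred 48.0 kb into the gene. It held 67 and 57 counts in B6 and 34 and 47 in D2, with a log2 fold change of -0.81 ± 0.240 (SE) and an adjusted p of 0.0162 (edgeR). Its call was lost without B6 library 2 (adjusted p = 0.209), without D2 library 2 (adjusted p = 0.130) or without D2 library 3 (adjusted p = 0.0609). In Exc-DG it held 1 to 5 counts per library, with a log2 fold change of 0.99 ± 0.906 (SE) and an adjusted p of 0.677 (edgeR).

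The central 200 bases of both intronic peaks are given because these peaks showed the largest called differences in accessibility. They are from the plus strand of GRCm38.p6, chr13:119341835-119342034 for the intron 14 peak and chr13:119360913-119361112 for the intron 12 peak, in lower case with CpG in capitals.
Intron 14 peak: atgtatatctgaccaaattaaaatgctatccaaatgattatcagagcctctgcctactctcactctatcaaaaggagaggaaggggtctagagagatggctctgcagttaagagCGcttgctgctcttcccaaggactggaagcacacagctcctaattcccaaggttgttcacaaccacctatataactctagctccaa
Intron 12 peak: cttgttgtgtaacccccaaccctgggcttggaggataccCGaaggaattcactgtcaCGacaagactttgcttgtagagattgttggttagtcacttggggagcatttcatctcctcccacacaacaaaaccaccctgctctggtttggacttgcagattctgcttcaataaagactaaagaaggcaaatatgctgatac
Both were poor in CpG, with 2 in the whole of each peak, or 0.510 and 0.847 per 100 bases. Of the intron 14 peak 41.3% is masked as repeat in this reference, and of the intron 12 peak 0%, against a median of 11.1% over all peaks. The letters are those of C57BL/6J. The part of base differences in D2 in the peak counts was not tested.

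**Figure D3:**
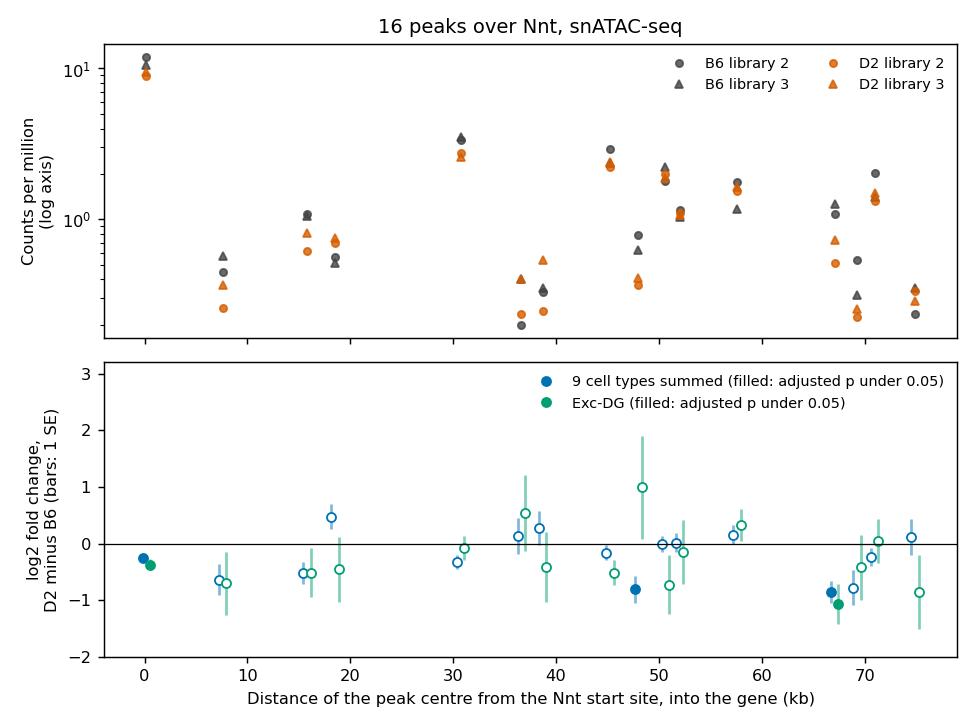
The 16 peaks by the distance of their centre from the Nnt start site in kb (x axis). Above, CPM in each library summed over 9 cell types (log axis), and below, the log2 fold change D2 minus B6 with bars of 1 SE for the sum and for Exc-DG. The start site peak at 0.16 kb holds the most counts, and the filled points, which passed an adjusted p under 0.05, all lie below 0.

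The start site peak was compared across cell types without a test outside Exc-DG. In Exc-DG its values were 15.6 and 14.5 CPM in B6 and 11.0 and 11.5 CPM in D2. In Exc-CA3 they were 10.0 and 10.3 CPM against 6.88 and 6.96 CPM. Both D2 libraries lay below both B6 libraries in these types, in Exc-CA1-Galntl6 (10.5 and 8.35 against 7.81 and 8.11 CPM) and in Exc-CA1-Camk2d (9.28 and 8.45 against 6.60 and 7.16 CPM). In Inh-MGE the strains overlapped, with 14.7 and 15.4 CPM in B6 and 14.8 and 15.7 CPM in D2. They also overlapped in Exc-CA1-Fras1, Exc-ENT and Exc-Cdh12, and Exc-Gpc6 was the type with higher D2 values (7.60 and 8.45 against 7.59 and 6.33 CPM). In Exc-CA3 the peak was thus lower in D2 without overlap although its transcript counts overlapped.

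**Figure D4:**
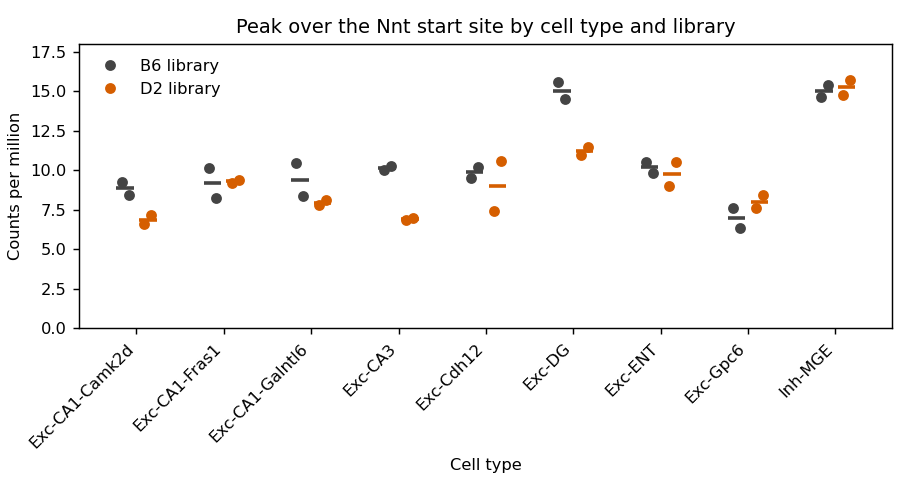
CPM in the peak over the Nnt start site (y axis) in each library of 9 neuronal cell types (x axis), with short bars at the mean of 2 libraries. The D2 libraries lie below the B6 libraries in Exc-DG, Exc-CA3, Exc-CA1-Galntl6 and Exc-CA1-Camk2d, and the strains overlap in Inh-MGE at about 15 CPM.

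NNT is one of several sources of mitochondrial NADPH, so the other genes of that supply and its users were counted from 4 lists with 37 members, all tested in the sum over cell types. Of these, 10 were higher and 6 were lower in D2, that is 43.2% called against 46.4% of all transcripts. Their median log2 fold change was 0.12, against 0.09 over all transcripts. The list of mitochondrial NADPH supply, which also holds a carrier and enzymes that can use NAD+, had 3 members higher and 2 lower of 11. Slc25a51, the carrier of NAD+ into mitochondria, rose in D2 by 0.46 ± 0.0981 (log2, SE), with an adjusted p of 0.00114 (edgeR). Glud1, glutamate dehydrogenase, and Me2, a mitochondrial malic enzyme that uses NAD+, were higher by 0.24 and 0.22 on the log2 scale. By cell type Glud1 had a log2 fold change of 0.43 in the non-neuronal sum (adjusted p = 0.00229), of -0.15 in the excitatory sum (adjusted p = 0.128) and of -0.39 in Exc-CA1-Galntl6 (adjusted p = 0.0206, all edgeR), and the difference between these was not tested. Me3, the NADP+-dependent malic enzyme of mitochondria, had 191 and 185 CPM in B6 and 154 and 149 CPM in D2, with a log2 fold change of -0.35 ± 0.0686 (SE) and an adjusted p of 0.000592 (edgeR). Idh2, the mitochondrial NADP+-dependent isocitrate dehydrogenase, had a log2 fold change of -0.27.

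Among 11 genes of peroxide and thiol defence, 3 were higher and 1 was lower in D2. Prdx3, a mitochondrial peroxiredoxin, had 7.55 and 7.23 CPM in B6 and 10.5 and 11.5 CPM in D2, with a log2 fold change of 0.53 ± 0.114 (SE) and an adjusted p of 0.00126 (edgeR). Gsr, glutathione reductase, was higher by 0.38 and Prdx5, another peroxiredoxin, by 0.23 on the log2 scale. Gpx4, which reduces lipid peroxides, had 22.2 and 24.1 CPM in B6 and 15.8 and 16.3 CPM in D2, with a log2 fold change of -0.57 ± 0.0878 (SE) and an adjusted p of 6.1e-05 (edgeR). In each of these genes both D2 libraries lay on one side of both B6 libraries.

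Of 7 genes of NADPH supply outside mitochondria, 2 were higher and 1 was lower in D2. Idh1, the cytosolic isocitrate dehydrogenase, had 12.8 and 11.4 CPM in B6 and 17.3 and 20.7 CPM in D2, with a log2 fold change of 0.60 ± 0.107 (SE) and an adjusted p of 0.000248 (edgeR). Me1, the cytosolic malic enzyme, had a log2 fold change of 0.28 and Nadk, the cytosolic NAD kinase, of -0.29. Of 8 genes of NAD synthesis, 2 were higher and 2 were lower. Nmrk1, a nicotinamide riboside kinase, had 16.0 CPM in both B6 libraries and 7.75 and 8.83 CPM in D2, with a log2 fold change of -0.99 ± 0.105 (SE) and an adjusted p of 1.2e-06 (edgeR). Nmnat2, the neuronal enzyme that makes NAD from its mononucleotide, had 167 and 163 CPM against 117 and 114 CPM, and a log2 fold change of -0.55. Nmnat1, its nuclear relative, had a log2 fold change of 0.50. Qprt, which makes the mononucleotide from quinolinate, had 7 and 6 counts in B6 and 21 and 14 in D2, with a log2 fold change of 1.58 ± 0.414 (SE) and an adjusted p of 0.00552 (edgeR). The shares called in the 4 lists, 36.4 to 50%, lay around the share of all transcripts, so these are values of single genes.

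No other annotated gene overlaps Nnt. Within 1 Mb there are 55 annotated genes, of which 26 are in the table and 19 were tested in the sum over cell types, with 3 higher and 4 lower in D2, where 46.4% of all transcripts were called. The nearest, Paip1, which encodes a partner of the poly(A)-binding protein, lies 19.6 kb beyond the start site. It had 1443 and 1389 counts in B6 and 1621 and 1487 in D2, with a log2 fold change of 0.31 ± 0.0825 (SE) and an adjusted p of 0.00580 (edgeR). Tmem267, 79.0 kb away, fell from 870 and 566 to 260 and 184 counts, with a log2 fold change of -1.53 ± 0.187 (SE) and an adjusted p of 5.9e-06 (edgeR). Ccl28, a chemokine gene 215 kb away, had 240 and 267 counts against 75 and 57 and a log2 fold change of -1.77, and 2 noncoding genes close to it, Gm48265 and 1700074H08Rik, had log2 fold changes of -1.70 and -1.54. Gm48265 overlaps the end of Tmem267 on the opposite strand, so reads could be shared between them only if the counts ignored strand. Gm48342, annotated as antisense and lying within Hmgcs1, had a log2 fold change of 0.71, and whether its counts used strand is not given in the sources used here. The last of the 7, Gm21358, was counted in D2 alone. Genes between Paip1 and Tmem267, and the larger genes beyond Ccl28 such as Hmgcs1 and Nim1k, did not pass in the sum. Nim1k, a kinase gene, passed in the excitatory sum with a log2 fold change of -0.55, where 5 of 18 tested neighbours were lower in D2 and 2 were higher. Of all transcripts in that sum 48.2% were called, and 17.2% were called and lower in D2.

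**Figure D5:**
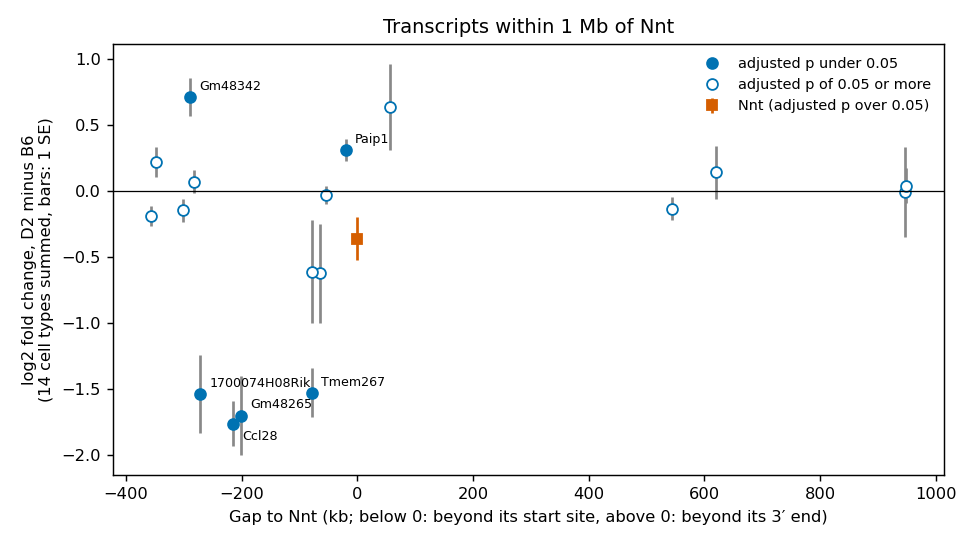
Log2 fold change, D2 minus B6, summed over 14 cell types (y axis), against the gap to Nnt in kb (x axis, negative beyond the start site), for 18 transcripts within 1 Mb that were counted in both strains. Bars are 1 SE, filled points passed an adjusted p under 0.05, and the square is Nnt (-0.36), which did not. Tmem267, Ccl28, Gm48265 and 1700074H08Rik lie between -1.53 and -1.77.

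The genes whose pattern was most like that of Nnt were found by Pearson's r of log2(CPM + 1) among 13301 symbols at a mean of at least 5 CPM. Over the 28 means of a cell type in a strain they were Jam2 (r = 0.870), Tmem176b (0.865), Gm6712 (0.861), Slc15a2 (0.857) and Als2cl (0.853). Jam2 reached its highest level, 143 CPM, in D2 oligodendrocyte precursors, and Slc15a2, a peptide transporter, its highest, 168 CPM, in D2 astrocytes. Over the 14 cell types of D2 alone they were Cpt1a (0.958), Gm16984 (0.954), Eci2 (0.952), Dnah7b (0.950) and Cpq (0.944). Cpt1a, which admits long-chain fatty acids to mitochondria, ranged from 0.488 CPM to 54.8 CPM in astrocytes, and Eci2, an enoyl-CoA isomerase, from 4.03 to 70.9 CPM, also highest in astrocytes. The points share 4 libraries and rest on few Nnt counts, and the genes with the highest r of so many are given as a description only.

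The snRNA-seq libraries held 40331488 to 52947791 counts and 5968 to 8128 nuclei in the cell types used, and the snATAC-seq libraries 85265745 to 114176027 counts and 4492 to 7092 nuclei. The names of the cell types were checked against 12 lists of 3 markers. In 11 lists the summed marker level of every column of the named type lay above that of every other column. The exception was the list for entorhinal neurons (Cux2, Tshz2 and Nxph3), which reached 1219 to 1582 CPM in Exc-ENT and up to 3232 CPM elsewhere, so that Exc-ENT is used here as the name in the tables. Markers of microglia (Csf1r, C1qa and Cx3cr1) reached at most 55 CPM outside microglia, and those of astrocytes (Aqp4, Gja1 and Slc1a3) reached 1113 CPM outside astrocytes, against 2707 to 2998 CPM within them. Their part in the Nnt counts of other types was not tested.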

How the data were processed

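The authors deposited whole-number counts of transcripts and of snATAC-seq peaks, added up within each cell type and library and not normalized. Per the methods they mapped reads with Cell Ranger (6.0.2, introns retained) and Cell Ranger ATAC (2.0.0) to mm10 for B6 and to mm10 with D2 SNPs exchanged for D2, and clustered nuclei with Seurat (4.0.5). The annotation release is not given in the sources used here, and GENCODE vM21 supplied the positions. A count of nuclei per column came with them. Doublets had been removed with DoubletFinder, and peaks called per sample with MACS had been merged.

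Each column was assigned to a strain but not to a GEO sample, because the tables number libraries 2 and 3 and the labels 1 and 2. The sums cover 14 of 17 cell types for snRNA-seq and 9 of 15 for snATAC-seq, where all types were planned. The joint fit used the same 14. The 12 snRNA-seq columns not used were those of caudal ganglionic eminence and Lamp5 interneurons and of Cajal-Retzius cells. The 24 snATAC-seq columns not used were those of caudal ganglionic eminence and Lamp5 interneurons and of the non-neuronal types. The 4 libraries of each assay are pools, with 2 libraries per strain. The p-values rest on a spread that the fits estimated partly from all transcripts or peaks. They do not measure the spread of Nnt alone. An exact permutation test of 2 against 2 cannot go below p = 0.33.

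The main test was edgeR 4.0.16 (R 4.3.3), with TMM, filterByExpr (peaks: at least 10 counts over the 4 libraries), quasi-likelihood F tests and Benjamini-Hochberg adjustment over all transcripts or peaks. SEs were taken from the fold change and F. The joint fit had terms for cell type by strain and for libraries. Levels are CPM of the column's total, and intervals on counts and shares, and limits from a count of 0, cover counting error only. Alternatives were DESeq2 1.42.0, RLE factors, library totals alone, no filter beyond 1 count, symbols counted in both strains, a replicate block, each library left out and, for the count of cell types, an adjusted p under 0.01. The scripts were tested on simulated counts with 200 changed features. Python 3.11.15, pandas 2.3.3, scipy 1.17.1 and matplotlib 3.10.9 were used.

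Nnt, the lists and the markers were chosen with earlier results of these data known. Named in the text are list members with an adjusted p under 0.05 in the sum (up to 6 per list), annotated genes within 1 Mb, the 5 genes with the highest r in each comparison, and the peaks. Symbols given as examples of duplicated entries, and the sums over excitatory or non-neuronal types or without astrocytes, were chosen after their values were seen.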

Additional observations from a re-analysis of the deposited data

Results flagged for a closer look

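The order of the strains was not the same in all cell types. In 6 of the 14 types both D2 libraries had lower Nnt CPM than both B6 libraries (Exc-DG, Exc-CA1-Galntl6, Exc-CA1-Camk2d, Exc-Gpc6, oligodendrocytes and microglia), and in 3 types both had higher CPM (astrocytes, oligodendrocyte precursors and NN-VLMC). Some of these rest on few counts. NN-VLMC had 0 and 3 in B6 against 7 and 2 in D2, and Exc-Gpc6 had 3 and 6 against 2 and 2. Over all pairs of a symbol and a cell type with 10 counts or more, the shares lower and higher without overlap were 24.3% and 33.2%. Exc-Cdh12, with 5 Nnt counts in B6 and 4 in D2, falls below that limit. The difference between these sets of types was not tested, since they were chosen by the outcome. The test of neuronal against non-neuronal types, planned over all types but run on the 14 used, gave an adjusted p of 0.112 (edgeR).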

How the results depend on the processing

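Over all results and alternative settings, 150 values kept the direction and the side of the threshold, or a count within 1.5 times, 19 lost the threshold, 12 counts fell further than that, 3 values gained the threshold and 3 changed sign. With DESeq2 the log2 fold changes of Exc-DG (-1.18) and Exc-CA1-Galntl6 (-1.69) no longer passed, so 0 cell types were called, with 1 of 12 at an unadjusted p under 0.05, and 0 peaks were called in the sum and in Exc-DG. At an adjusted p under 0.01 the count of cell types was 1. Leaving out each library gave 1 to 2 cell types called, 0 to 4 peaks in the sum and 1 peak in Exc-DG. The log2 fold change then ranged from -1.59 to -0.81 in Exc-DG, from -1.72 to -1.63 in Exc-CA1-Galntl6, from -0.90 to -0.14 in Inh-MGE, from 0.32 to 0.70 in astrocytes, from 0.22 to 0.53 in oligodendrocyte precursors, from -0.55 to 0.34 in Exc-CA3 (above 0 without B6 library 3) and from -0.68 to 0.087 in Exc-ENT (above 0 without D2 library 2). The summed difference, which did not pass, became -0.86 (excitatory types), -0.81 (neuronal types) and -0.63 (without astrocytes), all past the threshold, and 0.37 in non-neuronal types. Those sums were chosen after seeing the data, and the cause was not tested for any of these changes. The difference between the classes, with 12 types of at least 100 nuclei in every library, was -0.65, against -0.94. With only symbols counted in both strains, 3279 transcripts were called higher and 3474 lower in D2 in the sum, against 7778 and 4037. With the library number as a replicate block the log2 fold change was -0.36 in the sum, -1.17 in Exc-DG and -1.68 in Exc-CA1-Galntl6, and it changed no call. Libraries of the same number had deviations from the strain means that correlated at 0.00962, so the numbers were not taken as pairs. Depth limits the 7 types that were not tested, with 0 to 10 Nnt counts per library.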

Other observations

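In the 5 non-neuronal types summed, 9 of 11 other genes of mitochondrial NADPH supply passed in edgeR, 5 higher and 4 lower in D2, where 30.5% of transcripts passed. This list was singled out after its values were seen and is given as a description. In that sum the lists of peroxide and thiol defence, of supply outside mitochondria and of NAD synthesis passed at 18.2%, 42.9% and 14.3%. In astrocytes alone, 50% of the 10 tested genes of mitochondrial supply passed, where 26.2% of transcripts passed. In the non-neuronal sum Me3 had a log2 fold change of -0.77 and Idh2 of -0.49. Aldh1l2, a mitochondrial formyltetrahydrofolate dehydrogenase, had 0.66 and Mthfd2l, a folate dehydrogenase of mitochondria, 0.47. In the excitatory sum 2 of the 11 passed, Slc25a51 (0.57) and Me3 (-0.30), where 48.2% of transcripts passed. Whether the list differs between the classes was not tested.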
